A study of Mus musculus with 8 samples.

Results

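The comparison described here is that of tumours from mice given the MEK inhibitor PD-0325901 together with rapamycin, called the combination, against tumours from mice given rapamycin alone. It asks what the MEK inhibitor adds in a tumour in which mTORC1 is already inhibited. Of the 8 arrays of the study, 4 enter it, 2 of each group, and they were taken by their sample titles. All 19938 genes with a probe set of a single gene symbol were compared. The tumours are primary malignant peripheral nerve sheath tumours (MPNST) of NPcis mice, in which Nf1 and Trp53 are mutated on the same chromosome, and every group shares this genotype. The combination group received rapamycin injected into the peritoneum at 5 mg/kg and, by oral gavage, PD-0325901 in doses of 1.5 mg/kg on a schedule of 2 doses a day. The rapamycin group received the same rapamycin dose, and treatment lasted 14 hours. A PD-0325901 group and a vehicle group of 2 arrays each give the same step, MEK inhibitor against none, without rapamycin. No array is shared between the 2 steps. The sources used here give neither the age nor the number of the animals, and do not say whether the arrays of 1 group are of different animals, so p-values measure only the spread between these samples. The study was titled as a search for signalling nodes that matter in NF1-mutant cancers and for biomarkers of treatment.

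Neurofibromin, the protein of Nf1, switches Ras off, and cells that lack it signal through RAF, MEK and ERK and through PI3K, AKT and mTOR. MEK is the kinase that activates ERK, and ERK induces its own inhibitors (Sprouty, Spred and Dusp proteins) along with transcription factors of the Ets and Fos families. Rapamycin binds FKBP12 and blocks mTORC1, which drives protein synthesis, glycolysis and sterol synthesis. A tumour sample also holds macrophages, lymphocytes, vessels and neighbouring tissue, which a drug given to the whole animal reaches as well.

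Across probe sets the 2 combination arrays correlated at 0.9793 and the 2 rapamycin arrays at 0.9612, the lowest value of any pair of arrays in the study, while combination and rapamycin arrays correlated at 0.9691 to 0.9747. The rapamycin arrays differed from each other in neighbouring tissue and in proliferation. Rapamycin array 1 had the fat cell hormone Adipoq at a log2 value of 10.26 (6.31 to 6.99 on the other 3 arrays compared) and the mast cell protease Cpa3 at 10.82 (6.46 to 7.98). Rapamycin array 2 had the muscle creatine kinase Ckm at 10.91, the highest of the 4 arrays, against 8.36 on rapamycin array 1, with combination array 1 at 8.65 and combination array 2 in between. The mean log2 value of 3 Y-linked genes was 9.81 and 5.82 on combination arrays 1 and 2, against 5.61 and 5.67 on the rapamycin arrays, so among these 4 combination array 1 alone carried Y-linked transcripts. Of the other arrays both vehicle arrays (8.17 and 8.28) and PD-0325901 array 1 (8.83) carried them and PD-0325901 array 2 (5.57) did not. The step without rapamycin is therefore unbalanced in the opposite direction, with fewer arrays carrying them in the group with the MEK inhibitor. Leaving out combination array 1 compares arrays without these transcripts. A range in brackets after a list median is that found when each of the 4 arrays is left out in turn. Among markers of the Schwann lineage, Sox10 lay between 7.85 and 8.06 on the 4 arrays and S100b between 7.12 and 7.16. The deposited table has no detection call, so whether these are above background cannot be told.

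No gene passed the threshold. With limma and Benjamini-Hochberg adjustment over 19938 genes, 0 genes had an adjusted p under 0.05 in either direction (0%), and the smallest adjusted p was 0.5728. At an unadjusted p under 0.05 there were 787 genes higher with the combination than with rapamycin (3.95%) and 540 lower (2.71%), 1327 in all (6.66%), where 997 would be so with no difference. Both combination arrays lay above both rapamycin arrays for 3196 genes (16%) and below both for 3009 (15.1%). With a difference of at least 2-fold as well, these were 144 genes (0.722%) and 90 genes (0.451%). A gene was higher in the mean in 9626 cases (48.3%) and lower in 10312 (51.7%), and the median difference of all genes was -0.007. The values below are therefore descriptions of these 4 arrays. An exact permutation test of 2 arrays against 2 cannot go below 0.333.

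The 12 genes with the smallest p among those higher with the combination included H2-Aa, H2-Eb1, Ciita and Ctss of class II antigen presentation. Cd300c2, a receptor of myeloid leukocytes, had log2 values of 10.53 and 10.46 on the combination arrays and 9.50 and 9.39 on the rapamycin arrays, a difference of 1.05 (SE 0.10, a fold of 2.07). H2-Aa, the alpha chain of an MHC class II molecule, had 12.19 and 11.91 on the combination arrays, against 11.03 and 11.03 on the rapamycin arrays, a difference of 1.02 (SE 0.12). Hpgds, the prostaglandin D synthase of haematopoietic cells, had 10.13 and 10.01 against 9.22 and 8.98, a difference of 0.97 (SE 0.12). In each of these the 2 groups were about 1 log2 unit apart and did not overlap. Iqgap2, a scaffold protein of the cytoskeleton, had 10.42 and 10.50 with the combination and 9.27 and 9.14 with rapamycin (difference 1.25, SE 0.17). Tlr7, the endosomal receptor for single-stranded RNA, had 10.35 and 10.19 against 9.26 and 9.13 (1.08, SE 0.16). Pld4, an endosomal nuclease of myeloid and plasmacytoid cells, had 11.92 and 11.81 against 11.06 and 10.97 (0.85, SE 0.12). The others named by the same rule were H2-Eb1 (1.04), Ctss (0.67) and Ciita (1.05), described below with the class II genes, the RNA-editing deaminase Apobec1 (1.10), Otulinl (0.77) and the pseudogene Nlrp1c-ps (1.38). The adjusted p was 0.5728 for each of the 12. Leaving out any 1 of the 4 arrays kept the direction of all 12, and the smallest remainder of a difference was 0.78 of its size.

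The genes with the smallest p among those lower with the combination included an ERK-dependent transcription factor, an activator of mTORC1 and endothelial genes. Rbmx, an X-linked RNA-binding protein of splicing that has close copies elsewhere in the genome, had 8.82 and 8.84 on the combination arrays and 10.04 and 10.04 on the rapamycin arrays (difference -1.21, SE 0.15). Ets2, a transcription factor that ERK phosphorylates, had 10.53 and 10.21 against 11.33 and 11.55 (-1.07, SE 0.15). Rheb, the small GTPase that switches mTORC1 on, had 10.21 and 10.14 against 10.72 and 10.78 (-0.57, SE 0.09). The rapamycin arrays were the high ones in all 3, with no overlap. Sox7 and Sox18, transcription factors of vessel endothelium, had differences of -0.83 (SE 0.13) and -0.80 (SE 0.15), and Plvap, the diaphragm protein of endothelial fenestrae, had 9.46 and 9.30 with the combination against 10.28 and 10.17 with rapamycin (-0.84, SE 0.14). Tnfrsf22, a decoy receptor for TRAIL in the mouse, had 8.37 and 8.43 against 9.51 and 9.79 (-1.25, SE 0.18). The rest were the Src family kinase Yes1 (-1.05), the small heat shock protein Hspb8 (-0.75), the secreted protease Htra3 (-0.92), the interleukin receptor chain Il13ra1 (-0.57) and the tight junction scaffold Tjp1 (-0.84). Adjusted p-values from limma were at most 0.5751, no direction changed when an array was left out, and the smallest remainder was again 0.78 of the difference.

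**Figure D1:**
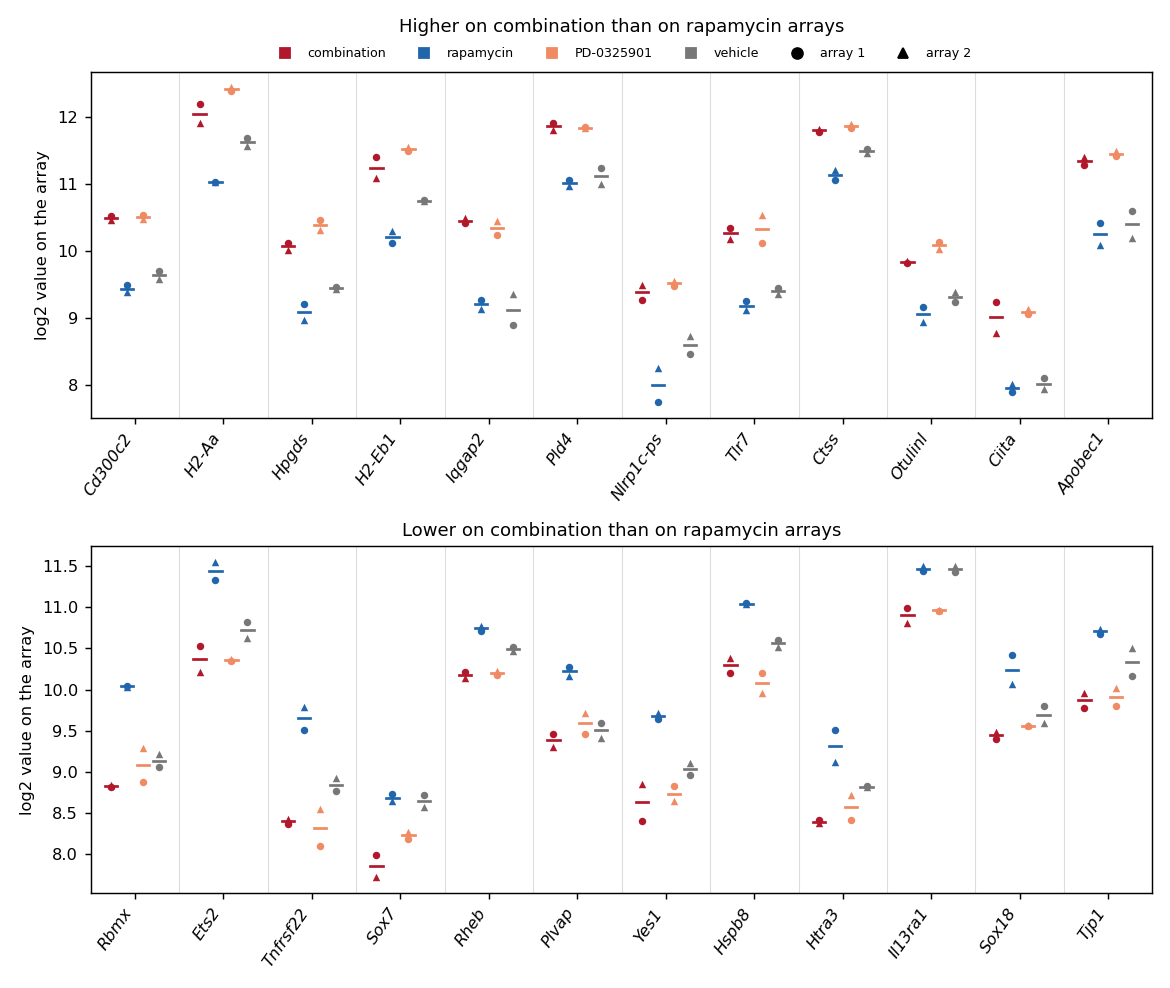
Deposited log2 value (vertical axis) of the 12 genes with the smallest p in each direction, on each array of the 4 groups; points are arrays and bars are group means. Both combination arrays lie above both rapamycin arrays in the upper panel (Cd300c2, 10.53 and 10.46 against 9.50 and 9.39) and below them in the lower panel (Rbmx, 8.82 and 8.84 against 10.04 and 10.04).

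The PD-0325901 and vehicle arrays show which of these differences were also present without rapamycin. Between PD-0325901 and vehicle arrays 0 genes had an adjusted p under 0.05 in limma. At an unadjusted p under 0.05 there were 691 higher (3.47%) and 474 lower (2.38%), 1165 in all (5.84%). Without overlap 3519 were higher (17.6%) and 4174 lower (20.9%), with at least a 2-fold difference as well 159 (0.797%) and 130 (0.652%), and in the mean 9208 were higher (46.2%) and 10730 lower (53.8%). All 12 leading higher genes were also higher on PD-0325901 than on vehicle arrays, without overlap, with differences of 0.38 (Ctss) to 1.21 (Iqgap2). Cd300c2 had 10.54 and 10.49 on the PD-0325901 arrays, against 9.70 and 9.59 on the vehicle arrays. Of the 12 leading lower genes, 11 were lower in the mean on PD-0325901 arrays, 10 of them without overlap, and the differences of all 12 ran from -0.53 (Tnfrsf22) to 0.09 (Plvap). For all 12 the difference was smaller in size than that with rapamycin present, on which the genes had been chosen. Rbmx had 8.88 and 9.28 on PD-0325901 arrays and 9.06 and 9.21 on vehicle arrays, so its rapamycin arrays stood apart from the other 6. Over all genes the sign was the same in both steps for 11972 of 19938 (60%). It was the same for 120 of the 144 genes at least 2-fold higher with the combination (83.3%) and for 67 of the 90 at least 2-fold lower (74.4%). Because the p-values rest on a spread estimated from all 8 arrays, the rule favoured genes whose PD-0325901 and vehicle arrays lie close within their group.

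**Figure D2:**
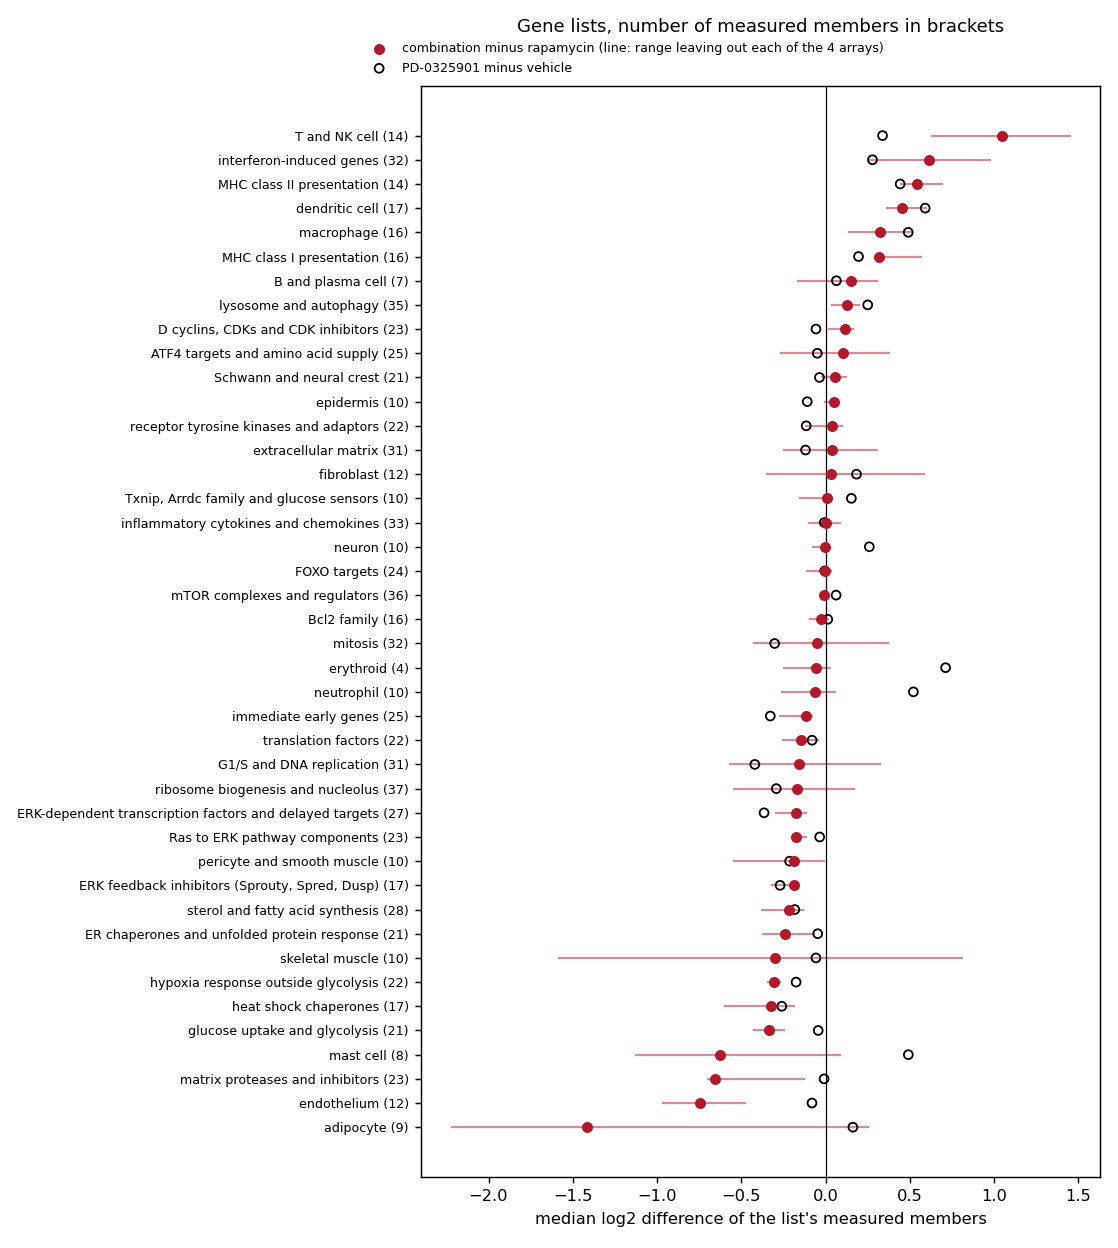
Median log2 difference (horizontal axis) over the measured members of each of 42 gene lists, combination minus rapamycin (filled, with a line for the range when each of the 4 arrays is left out) and PD-0325901 minus vehicle (open). T and NK cell, interferon-induced and MHC class II genes lie to the right, and endothelial, glycolytic, hypoxia and heat shock genes to the left; the adipocyte and skeletal muscle lines are the longest.

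MHC class II genes were higher with the combination as a group. All 14 measured genes of the class II list had a positive difference, 12 without overlap and 9 at an unadjusted p under 0.05, against 48.3%, 16% and 3.95% of all genes, and the median difference was 0.54 (0.45 to 0.69 with each array left out). Class II molecules carry peptides from the endosome to the surface of dendritic cells, macrophages and B cells. H2-Ab1, the beta chain that pairs with H2-Aa, had 12.40 and 11.98 on the combination arrays and 11.07 and 11.32 on the rapamycin arrays (0.996, SE 0.18). H2-Eb1, the beta chain of the second class II molecule, had 11.40 and 11.09 against 10.12 and 10.30 (1.04, SE 0.14). The invariant chain Cd74, which escorts class II to the endosome, had 12.64 and 12.26 against 11.86 and 11.74 (0.65, SE 0.15). Cathepsin S, encoded by Ctss, degrades the invariant chain and had 11.78 and 11.83 against 11.06 and 11.22 (0.67, SE 0.10). Ciita, the coactivator on which class II transcription depends, had 9.24 and 8.79 against 7.90 and 8.03 (1.05, SE 0.17). Of the RFX complex that holds CIITA at the promoter, Rfxank had a difference of 0.59 (SE 0.17), Rfx5 of 0.31 (SE 0.14) and Rfxap of 0.07 (SE 0.12). The regulators of peptide loading H2-Ob and H2-Oa had differences of 0.49 (SE 0.16) and 0.46 (SE 0.18), while the arrays of H2-DMa overlapped (0.44, SE 0.36). On PD-0325901 against vehicle arrays the same 14 genes were also all higher, 10 without overlap (all genes 17.6%), with a median of 0.44. Over the 4 arrays compared, the dendritic cell score separated the groups as the class II score did, and the macrophage score did not, as given below. On PD-0325901 arrays 1 and 2 the scores were 0.31 and 0.32 for class II, 0.04 and 0.55 for dendritic cells and 0.28 and 0.29 for macrophages. Vehicle arrays 1 and 2 had -0.08 and -0.24, -0.19 and -0.38, and -0.04 and -0.28, in the same order. The part of either cell type in the class II values was not tested.

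CIITA acts through factors bound to conserved boxes before the start of class II genes, one of which, the Y box, binds NF-Y. The promoters of H2-Aa and H2-Eb1 are shown because these genes had the smallest p of the list. Each is the 250 bases before the start in RefSeq's table (build GRCm38.p6), written 5′ to 3′ on the gene's strand, at chr17:34287824-34288073 (minus strand) and chr17:34305617-34305866 (plus strand), with the Y box core TGATTGG in capitals.
H2-Aa: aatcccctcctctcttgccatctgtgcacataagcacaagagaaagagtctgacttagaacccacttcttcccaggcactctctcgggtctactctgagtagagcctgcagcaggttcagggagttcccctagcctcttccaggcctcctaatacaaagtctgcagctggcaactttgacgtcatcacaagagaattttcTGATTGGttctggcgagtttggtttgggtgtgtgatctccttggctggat
H2-Eb1: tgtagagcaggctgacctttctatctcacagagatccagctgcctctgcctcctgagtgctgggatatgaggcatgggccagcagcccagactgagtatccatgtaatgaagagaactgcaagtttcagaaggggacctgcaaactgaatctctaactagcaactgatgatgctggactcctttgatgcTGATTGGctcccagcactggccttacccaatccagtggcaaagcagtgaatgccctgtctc
The last base of the match lies 44 bases before the start in H2-Aa and 55 in H2-Eb1. Searched on both strands, TGATTGG was found before 6 of the 10 class II list genes with a promoter in the table, and in 7.23% of all 32851 promoters (8.38% of 27025 genes). A match describes the letters only.

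Genes of class I presentation were higher as well, though the classical heavy chain genes H2-K1, H2-D1 and H2-L were not among those measured. Of 16 measured genes 15 had a positive difference, 10 without overlap (all genes 16%) and 6 at an unadjusted p under 0.05 (3.95%). The median was 0.32 (0.34 to 0.57 with each array left out). The immunoproteasome subunit Psmb9 had 9.63 and 9.75 on the combination arrays and 8.89 and 8.79 on the rapamycin arrays (0.85, SE 0.19), and Psmb8 had 9.30 and 9.26 against 8.43 and 8.33 (0.90, SE 0.23). The peptide transporter genes Tap1 and Tap2 had differences of 0.99 (SE 0.37) and 0.43 (SE 0.17), and the non-classical class I genes H2-M3 and H2-T10 of 0.65 (SE 0.20) and 0.70 (SE 0.21). B2m, the light chain of class I, had 12.87 and 13.10 against 12.98 and 12.75, with overlap. Without rapamycin 13 of the 16 were higher on PD-0325901 than on vehicle arrays, with a median of 0.20, but only 2 were so without overlap, a smaller share than the 17.6% of all genes.

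T and NK cell genes had the largest median difference of the lists among those higher with the combination, 1.05 (0.63 without combination array 2 to 1.45 without combination array 1). All 14 measured genes were higher, 12 without overlap (all genes 16%) and 10 at an unadjusted p under 0.05 (3.95%). Nkg7, a protein of cytotoxic granules, had log2 values of 9.61 and 10.92 on the combination arrays and 7.55 and 8.07 on the rapamycin arrays, a difference of 2.45 (SE 0.60). Granzyme B, Gzmb, had 7.50 and 8.56 against 6.48 and 6.37 (1.61, SE 0.38), and the NK receptor Ncr1 had 7.03 and 8.49 against 6.29 and 6.26 (1.48, SE 0.46). Combination array 2 was the highest of the 4 in each, and combination array 1 lay between it and the rapamycin arrays. The T cell receptor component Cd3g had 7.72 and 8.55 against 6.56 and 6.74 (1.48, SE 0.48). The costimulatory receptor Cd28 had 7.78 and 8.37 against 6.70 and 6.60 (1.43, SE 0.36). The coreceptor chain Cd8b1 had 8.19 and 8.85 against 7.21 and 7.29 (1.26, SE 0.37), and Cd4 overlapped between the groups (0.51, SE 0.48). Il2rb, a receptor chain for interleukins 2 and 15, was the last of the 8 genes with the largest positive difference without overlap, with 8.67 and 9.74 against 7.27 and 7.36 (1.89, SE 0.47). The list score, an average over members after each gene's mean of the 8 arrays was subtracted, was 0.10 and 0.91 on the combination arrays and -0.59 and -0.58 on the rapamycin arrays. It was -0.04 and 0.58 on the PD-0325901 arrays and 0.01 and -0.40 on the vehicle arrays, and the 14 genes were all higher there too, with a median of 0.34. Of these 3 of 14 were without overlap, close to the 17.6% of all genes. In bulk tumour RNA, more or fewer cells of a type and more or less RNA per cell cannot be told apart.

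Dendritic cell genes differed in the same direction. Of 17 measured genes 13 were higher, 10 without overlap (all genes 16%) and 5 at an unadjusted p under 0.05 (3.95%). The median was 0.46 (0.36 to 0.60). Siglech, a marker of plasmacytoid dendritic cells in the mouse, had 8.00 and 8.10 on the combination arrays and 7.18 and 7.19 on the rapamycin arrays (0.87, SE 0.11). Flt3, the growth factor receptor of dendritic cell precursors, had 8.24 and 8.23 against 7.43 and 7.41 (0.81, SE 0.15). Irf8, the transcription factor of conventional and plasmacytoid lineages, had 10.63 and 10.59 against 9.95 and 9.89 (0.69, SE 0.16). The arrays of each group lay close together in these 3 genes, and the groups were clearly apart. Clec9a and Xcr1, markers of cross-presenting dendritic cells, had differences of 1.17 (SE 0.34) and 0.67 (SE 0.27). Lower without overlap were Zbtb46, a transcription factor of conventional dendritic cells (-0.19, SE 0.10), and Tcf4 (-0.13, SE 0.19). Itgax (-0.35, SE 0.55) and Cd209a (-0.10, SE 0.23) were lower in the mean, with overlap. The score was 0.25 and 0.17 on the combination arrays against -0.17 and -0.27 on the rapamycin arrays. The PD-0325901 against vehicle median was 0.59, with 14 of 17 higher.

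Macrophage genes were mostly higher, without separating as a score. Of 16 genes 12 had a positive difference, 9 without overlap (all genes 16%) and 3 at an unadjusted p under 0.05 (3.95%). The median was 0.32 (0.14 without combination array 1 to 0.51 without combination array 2). Adgre1, which encodes F4/80, had 11.53 and 11.42 on the combination arrays and 10.69 and 10.91 on the rapamycin arrays (0.68, SE 0.14). The high-affinity IgG receptor Fcgr1 had 10.03 and 10.05 against 9.25 and 9.31 (0.76, SE 0.17), and the lipid receptor Trem2 had 10.91 and 10.78 against 10.56 and 10.32 (0.41, SE 0.14). The scavenger receptor Msr1 lay the other way, with 9.70 and 8.29 against 9.77 and 10.13 (-0.95, SE 0.51). Scores were 0.30 and -0.18 on the combination arrays and -0.23 and -0.14 on the rapamycin arrays, so combination array 2 lay between the rapamycin arrays. Of the neutrophil list, 3 of 10 genes were higher, with the receptor Csf3r at 1.01 (SE 0.27) and a median of -0.06 (-0.26 to 0.05). B and plasma cell genes had no stable direction, with 5 of 7 higher and a median of 0.15 that was 0.30 without combination array 1, -0.07 without combination array 2 and -0.17 without rapamycin array 2.

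Interferon-induced genes were higher in 31 of 32 cases, 17 without overlap (all genes 16%), and 1 array carried much of it. An unadjusted p under 0.05 was reached by 3 of the higher genes (all genes 3.95%). The median of 0.61 was 0.27 without combination array 2 and 0.98 without combination array 1, and the scores were -0.07 and 0.68 on the combination arrays against -0.18 and -0.53 on the rapamycin arrays. The T and NK cell scores, given above, were likewise highest on combination array 2, and without rapamycin both scores were highest on PD-0325901 array 2 (interferon 0.39, T and NK 0.58). The part of these cells in the interferon values was not tested. Mx1, an antiviral GTPase, had 7.50 and 8.20 on the combination arrays and 6.89 and 6.78 on the rapamycin arrays (1.01, SE 0.34). Irf9, the DNA-binding subunit of the complex that interferon receptors activate, had 9.61 and 10.26 against 9.48 and 9.10 (0.65, SE 0.24). Ifit1 had 9.40 and 10.73 against 9.34 and 8.19 (1.30, SE 0.58), so that combination array 1 and rapamycin array 1 nearly met. The PD-0325901 against vehicle median was 0.28.

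Cytokine and chemokine genes had no common direction, with 17 of 33 higher and a median of 0.00 (-0.10 to 0.08), but single members were apart. Il1b, the inflammatory cytokine, had 7.16 and 7.53 on the combination arrays and 8.29 and 8.27 on the rapamycin arrays (-0.94, SE 0.20). It was also lower without rapamycin, with 7.91 and 7.87 on PD-0325901 arrays against 9.95 and 9.44 on vehicle arrays (-1.80). The neutrophil chemokine Cxcl2 had 6.35 and 6.67 against 7.20 and 7.64 (-0.91, SE 0.35). Ccl5, a chemokine of T cells, had 10.83 and 12.21 against 10.50 and 9.92 (1.31, SE 0.49), the combination arrays being the higher ones. Ccl8, a monocyte chemokine, had a difference of 0.96 (SE 0.41), and of 2.44 between PD-0325901 and vehicle.

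Endothelial genes were lower with the combination without exception. All 12 had a negative difference, against 51.7% of all genes, 9 without overlap (15.1%) and 7 at an unadjusted p under 0.05 (2.71%), and the median was -0.74 (-0.97 to -0.48). VE-cadherin, encoded by Cdh5, had 10.51 and 10.51 on the combination arrays and 11.80 and 11.26 on the rapamycin arrays (-1.01, SE 0.26). The VEGF receptor Kdr had 8.58 and 8.81 against 9.43 and 9.23 (-0.64, SE 0.19), and Flt1, the other VEGF receptor of endothelium, had 8.61 and 8.79 against 9.46 and 9.51 (-0.78, SE 0.31). The rapamycin arrays were higher in all 3, with array 1 the highest for Cdh5 and Kdr. Emcn, a sialomucin of capillaries and veins, had a difference of -0.78 (SE 0.26), the adhesion molecules Esam and Pecam1 of -0.87 (SE 0.31) and -0.84 (SE 0.31), and the receptor Tie1 of -0.70 (SE 0.26). Eng, Tek and Vwf overlapped between the groups. The score was -0.37 and -0.23 on the combination arrays and 0.67 and 0.11 on the rapamycin arrays, against -0.33 and 0.13 on PD-0325901 arrays and 0.20 and -0.19 on vehicle arrays, where the groups overlapped and the median was -0.08. Rapamycin array 1 also had the highest adipocyte score, 2.18, and the highest mast cell score, 1.18. Without that array the endothelial median was -0.48. Of pericyte and smooth muscle genes 7 of 10 were lower, with a median of -0.19 that was -0.55 without combination array 1 and -0.01 without rapamycin array 1. Among vessel wall genes, Mcam, an adhesion molecule, had 9.99 and 9.45 against 10.72 and 10.83 (-1.06, SE 0.23).

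**Figure D3:**
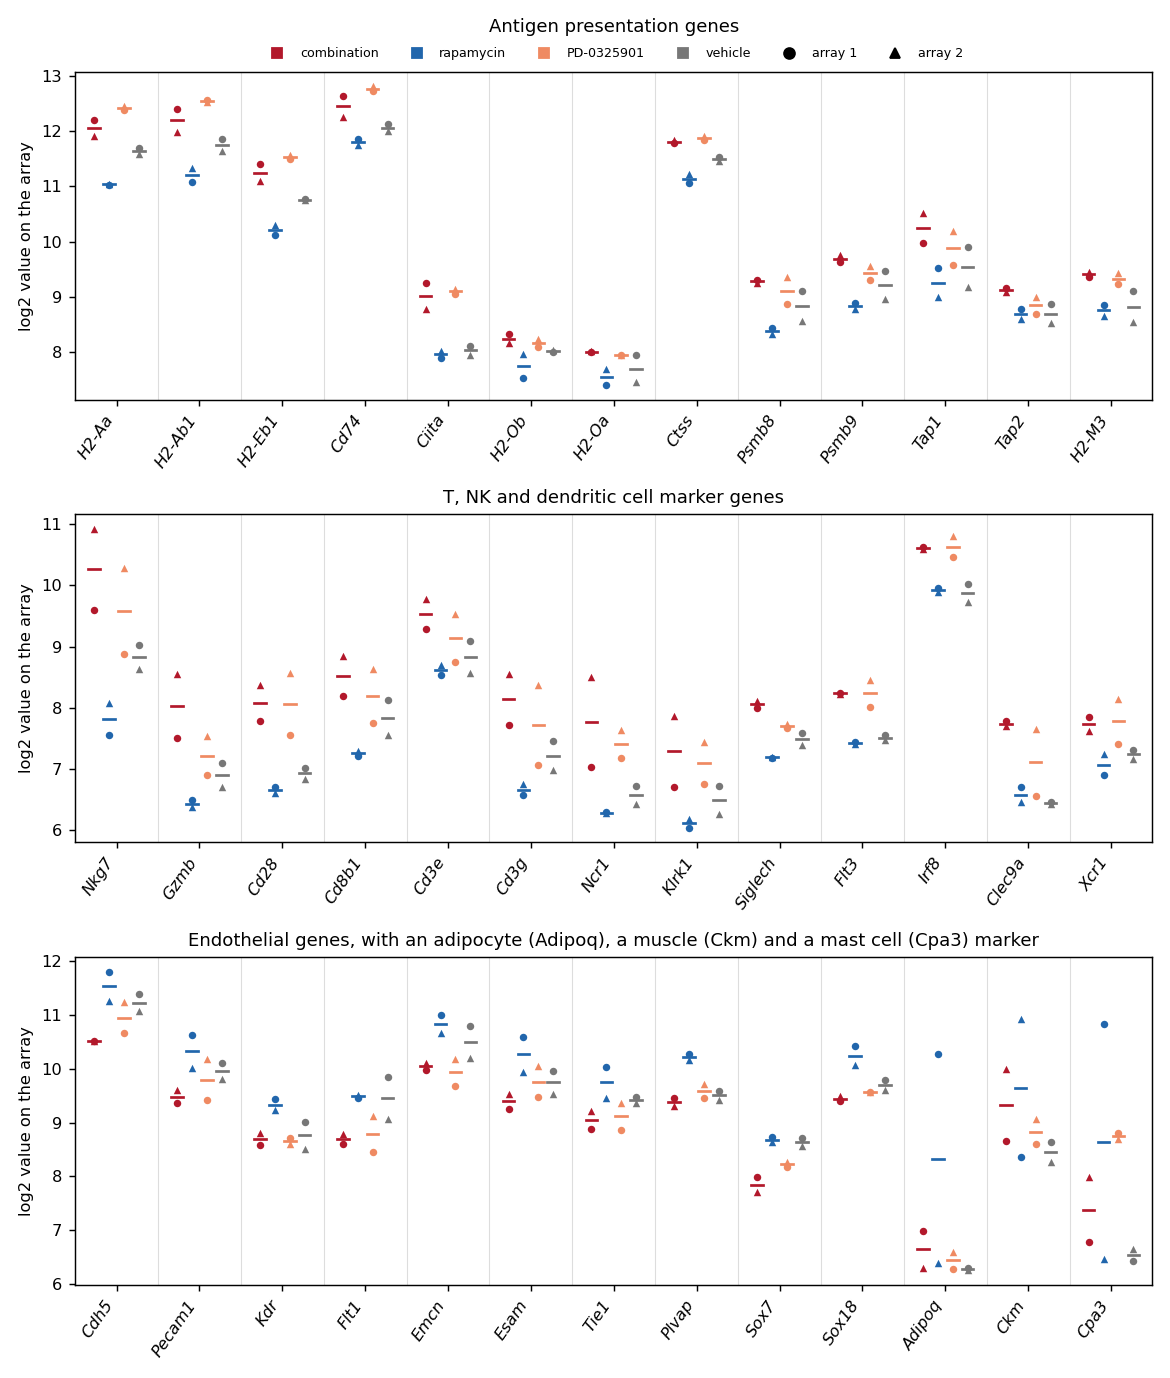
Deposited log2 value (vertical axis) of antigen presentation genes (top), T, NK and dendritic cell genes (middle) and endothelial genes with Adipoq, Ckm and Cpa3 (bottom), per array and group, with group means as bars. The genes shown were picked by hand. List members that overlap or lie the other way, such as H2-DMa, B2m, Cd4, Zbtb46, Eng, Tek and Vwf, are not shown. Combination arrays lie above rapamycin arrays in the top and middle panels (Gzmb, 7.50 and 8.56 against 6.48 and 6.37). They lie below them for the endothelial genes shown (Cdh5, 10.51 and 10.51 against 11.80 and 11.26), while Adipoq is high on rapamycin array 1 alone.

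The direct readouts of ERK were lower in part. Of 17 feedback inhibitor genes 14 had a negative difference, 7 without overlap (all genes 15.1%) and 2 at an unadjusted p under 0.05 (2.71%). The median was -0.19 (-0.32 to -0.21 with each array left out). Spred1, which brings neurofibromin to the membrane, had 10.15 and 10.14 on the combination arrays and 10.56 and 10.69 on the rapamycin arrays (-0.48, SE 0.09). Spred2 had 10.06 and 10.02 against 10.52 and 10.63 (-0.53, SE 0.11). Both genes were tight within each group. The ERK phosphatase Dusp6 had 10.43 and 10.15 against 10.58 and 11.49 (-0.75, SE 0.41), where rapamycin array 1 lay just above combination array 1. Dusp5, a nuclear ERK phosphatase, had 9.24 and 8.83 against 9.25 and 10.01 (-0.59, SE 0.30). The Sprouty genes Spry2 (0.23, SE 0.34), Spry4 (-0.19, SE 0.22) and Spry1 (-0.17, SE 0.46) overlapped between the groups. On PD-0325901 against vehicle arrays the list had a median of -0.27, with Spred1 at -0.61, Dusp6 at -0.77 and Dusp5 at -0.90.

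Of the transcription factors and delayed targets of ERK, 20 of 27 genes were lower, with a median of -0.17 (-0.30 to -0.12). Without overlap 7 of the 27 were lower and 3 higher, against 15.1% and 16% of all genes. Hbegf, a ligand of the EGF receptor that ERK induces, had 9.32 and 9.004 on the combination arrays and 10.38 and 10.72 on the rapamycin arrays, a difference of -1.39 (SE 0.30). Without rapamycin it had 9.69 and 9.09 on PD-0325901 arrays, against 10.87 and 10.23 on vehicle arrays, so both arrays with the MEK inhibitor were the lower ones in each step. Bcl2l11, the death protein BIM that ERK marks for destruction, had 10.61 and 10.36 with the combination against 10.17 and 9.54 with rapamycin (0.62, SE 0.25). Etv5, an Ets factor used as a marker of ERK output, had 8.99 and 8.87 against 9.57 and 9.06 (-0.38, SE 0.23). Its relative Etv4 overlapped (-0.03), as did Myc (-0.41, SE 0.27) and cyclin D1, Ccnd1 (-0.17). Of 25 immediate early genes 14 were lower and 11 higher, with a median of -0.12 (-0.27 to -0.08). Fosb had 7.73 and 7.84 against 8.42 and 8.09 (-0.47, SE 0.13), and Egr1, whose values were 9.70 and 9.62 against 9.43 and 10.74, had a difference of -0.42 that was 0.23 without rapamycin array 2. The PD-0325901 against vehicle medians were lower for both lists, -0.37 and -0.33.

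Of the components between Ras and ERK, 20 of 23 had a negative difference and 9 did so without overlap (all genes 15.1%). But the median was -0.18 (-0.15 to -0.11), and none had an unadjusted p under 0.05 (2.71% of all genes were lower at it). The MEK genes Map2k1 and Map2k2 had differences of -0.38 (SE 0.21) and -0.22 (SE 0.15), and the Ras GTPase-activating gene Rasal2 of -0.48 (SE 0.20). Nf1 itself had 9.72 and 10.07 on the combination arrays and 9.98 and 10.46 on the rapamycin arrays (-0.32, SE 0.21). The Nf1 arrays overlapped between the groups, and the position of the Nf1 probes relative to the mutated part of the gene is not stated in the labels.

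Glycolytic genes were lower with the combination. Of 21 measured genes 17 had a negative difference, 12 without overlap (all genes 15.1%) and 5 at an unadjusted p under 0.05 (2.71%). The median was -0.34 (-0.43 to -0.25). The glucose transporter Slc2a1 had 10.94 and 11.09 on the combination arrays and 11.47 and 11.82 on the rapamycin arrays (-0.63, SE 0.26). Phosphoglycerate kinase, Pgk1, had 11.17 and 10.90 against 11.55 and 12.26 (-0.87, SE 0.31). Lactate dehydrogenase A, Ldha, had 11.66 and 11.72 against 11.98 and 12.40 (-0.50, SE 0.15). Rapamycin array 2 was the highest of the 4 in each. The phosphofructokinase gene Pfkp had a difference of -0.77 (SE 0.25), the lactate exporter Slc16a3 of -0.56 (SE 0.21), pyruvate kinase, Pkm, of -0.27 (SE 0.10) and Pgam1 of -0.42 (SE 0.18). Hexokinase 2, Hk2, overlapped (9.16 and 8.79 against 8.57 and 9.39), and Pfkfb3 and Pfkfb4, which make the activator of phosphofructokinase, were higher without overlap at 0.38 (SE 0.24) and 0.43 (SE 0.21). Between PD-0325901 and vehicle 13 of 21 were lower and the median was -0.04.

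Hypoxia response genes outside glycolysis were lower in 20 of 22 cases, 8 without overlap (all genes 15.1%). An unadjusted p under 0.05 was reached by 2 of the lower genes (all genes 2.71%). The median of -0.31 stayed between -0.34 and -0.27 when each array was left out. Car9, a carbonic anhydrase and a common marker of hypoxic tumour, had 6.84 and 7.08 on the combination arrays and 7.84 and 8.50 on the rapamycin arrays (-1.22, SE 0.34). Bnip3, a mitophagy receptor, had 9.38 and 9.48 against 10.45 and 10.35 (-0.97, SE 0.31). Adm, the vessel peptide adrenomedullin, had 8.07 and 8.08 against 8.45 and 9.02 (-0.66, SE 0.44), and Vegfa had 9.62 and 10.01 against 10.05 and 10.63 (-0.52, SE 0.47). All 4 were without overlap, though rapamycin array 1 lay close to combination array 2 for Vegfa. Angptl4 was higher in the mean (0.19, SE 0.41). The scores were -0.28 and -0.23 on the combination arrays and 0.13 and 0.18 on the rapamycin arrays. On vehicle arrays 1 and 2 they were 0.43 and -0.07, and on PD-0325901 arrays 1 and 2 -0.17 and -0.003, with overlap. Without rapamycin 16 of 22 genes were lower on PD-0325901 than on vehicle arrays, with a median of -0.18.

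HIF factors bind a response element whose core is ACGTG, and promoters of 3 genes of these lists that hold it are shown, picked by hand as examples. The 250 bases before the start of Ldha (chr7:46845554-46845803, plus strand, 1 of the 2 promoters in the table), Pgk1 (chrX:106186850-106187099, plus strand) and Bnip3 (chr7:138909507-138909756, minus strand) are from RefSeq in GRCm38.p6 and are written on the gene's strand. Capitals mark ACGTG on either strand, and CACGTG holds an overlapping match on each.
Ldha: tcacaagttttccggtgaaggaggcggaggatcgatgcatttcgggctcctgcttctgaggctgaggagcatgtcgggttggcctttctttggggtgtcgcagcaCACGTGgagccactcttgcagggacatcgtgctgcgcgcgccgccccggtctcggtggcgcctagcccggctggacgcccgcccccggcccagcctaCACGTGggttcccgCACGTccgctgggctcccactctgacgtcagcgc
Pgk1: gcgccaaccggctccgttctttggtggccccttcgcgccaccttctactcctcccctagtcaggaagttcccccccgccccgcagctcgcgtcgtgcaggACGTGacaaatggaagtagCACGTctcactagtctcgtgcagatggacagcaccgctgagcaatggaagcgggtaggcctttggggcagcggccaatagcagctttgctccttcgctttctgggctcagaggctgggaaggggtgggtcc
Bnip3: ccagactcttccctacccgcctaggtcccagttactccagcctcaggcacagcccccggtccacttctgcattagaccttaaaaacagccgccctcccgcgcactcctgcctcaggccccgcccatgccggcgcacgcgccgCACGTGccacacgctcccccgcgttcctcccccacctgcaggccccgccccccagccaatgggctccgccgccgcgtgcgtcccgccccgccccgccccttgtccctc
The core was found 5 times before Ldha and 2 times each before Pgk1 and Bnip3, counting both strands. For Ldha the promoter with the most matches was the one taken. It was in the promoter window of 11 of 19 glycolytic and 12 of 18 hypoxia list genes found in the table, and in 16.57% of all promoters (18.49% of genes).

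**Figure D4:**
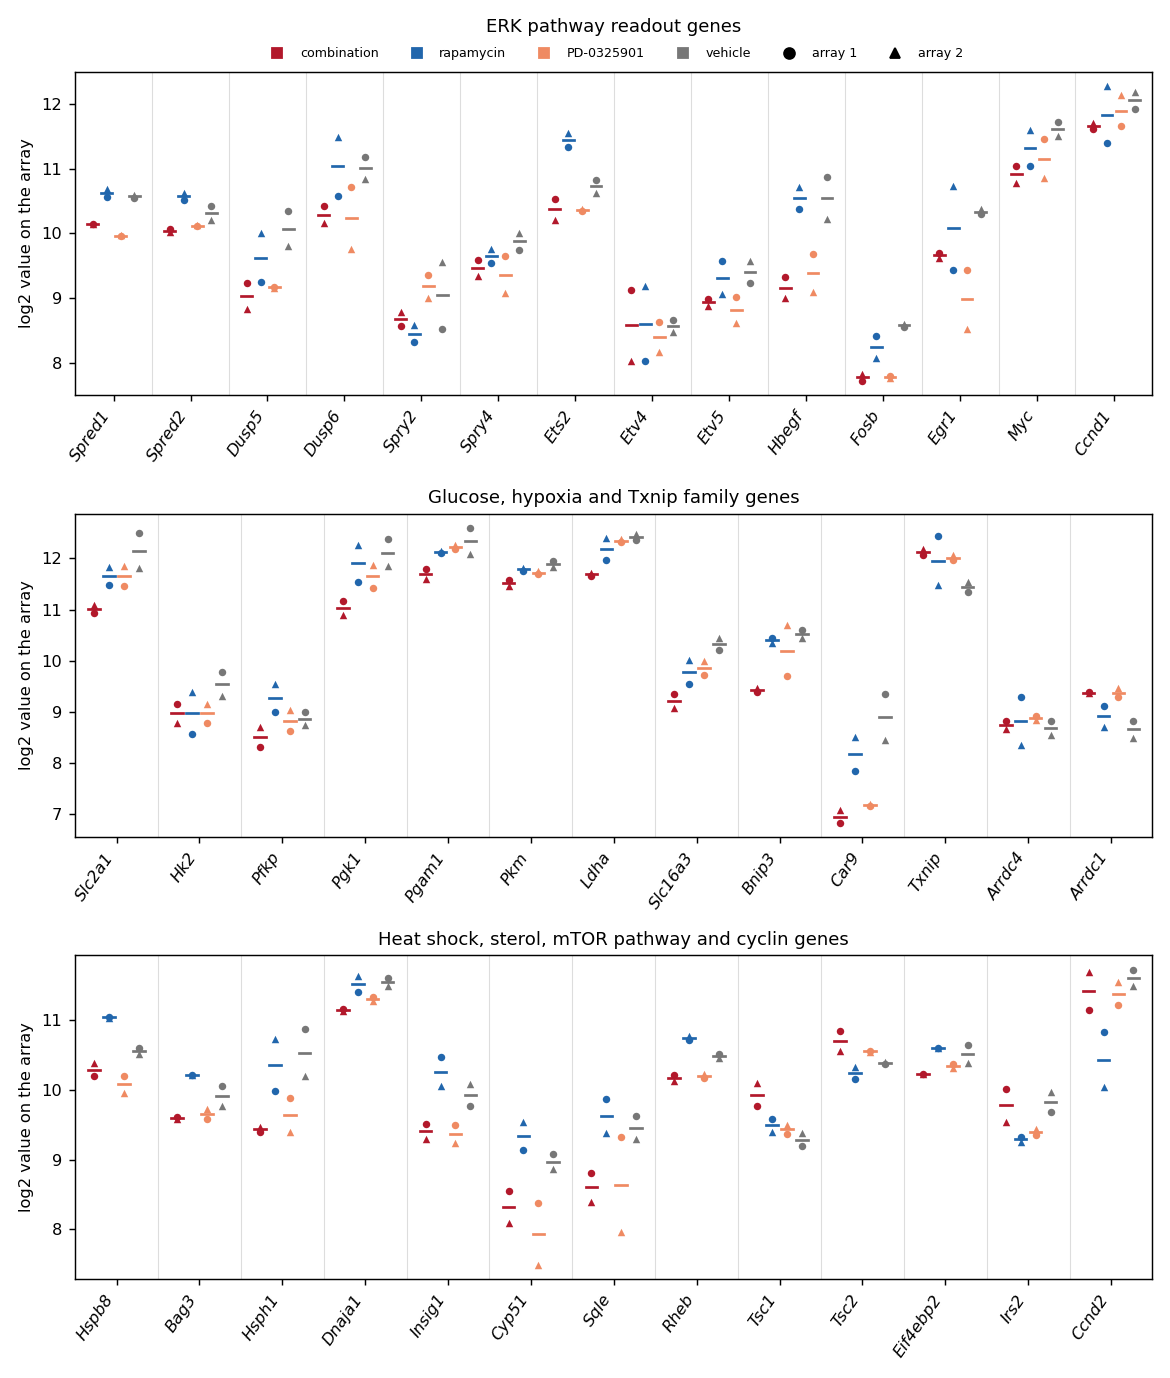
Deposited log2 value (vertical axis) of ERK readout genes (top), glucose, hypoxia and Txnip family genes (middle) and heat shock, sterol, mTOR pathway and cyclin genes (bottom), per array and group, with group means as bars. Combination arrays are the lower ones for Hbegf, Slc2a1, Bnip3 and Rheb, while Spry2, Etv4, Hk2 and Txnip overlap between combination and rapamycin arrays.

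Txnip, an arrestin-like protein that lowers glucose uptake, had 12.06 and 12.18 on the combination arrays and 12.43 and 11.48 on the rapamycin arrays. Its difference of 0.16 was -0.31 without rapamycin array 2. The relative Arrdc4 had a difference of -0.07, which was 0.40 without rapamycin array 1. Arrdc1, another arrestin of the family, had 9.40 and 9.36 against 9.11 and 8.72 (0.46, SE 0.18). The 10 genes of the list split evenly (median 0.01, range -0.15 to 0.02), whereas 9 of 10 were higher on PD-0325901 than on vehicle arrays (median 0.15).

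Heat shock chaperone genes were lower in 16 of 17, 9 without overlap (all genes 15.1%) and 4 at an unadjusted p under 0.05 (2.71%). The median was -0.33 (-0.60 without rapamycin array 1 to -0.19 without rapamycin array 2). Hspb8 had 10.20 and 10.39 on the combination arrays and 11.05 and 11.04 on the rapamycin arrays (-0.75, SE 0.12), and its partner Bag3 had 9.62 and 9.58 against 10.22 and 10.21 (-0.62, SE 0.12). Hsph1, a nucleotide exchange factor of Hsp70, had 9.40 and 9.47 against 9.98 and 10.73 (-0.92, SE 0.33), and the cochaperone Dnaja1 a difference of -0.37 (SE 0.12). The groups were apart in each. On PD-0325901 against vehicle arrays 16 of 17 were also lower (median -0.26). Endoplasmic reticulum chaperone genes were lower in 19 of 21 cases with a median of -0.24 (-0.37 without combination array 1 to -0.07 without combination array 2), among them Creld2 (-0.57, SE 0.21) and Sel1l (-0.36, SE 0.14). Herpud1 lay the other way (0.55, SE 0.23).

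Sterol and fatty acid synthesis genes were lower in 23 of 28 cases, 10 without overlap (all genes 15.1%). An unadjusted p under 0.05 was reached by 2 of the lower genes (all genes 2.71%), and the median was -0.22 (-0.38 to -0.14). Insig1, the sterol sensor that holds SREBP in the endoplasmic reticulum and is itself an SREBP target, had 9.51 and 9.30 on the combination arrays and 10.48 and 10.05 on the rapamycin arrays (-0.86, SE 0.20). The demethylase Cyp51 had 8.55 and 8.09 against 9.14 and 9.55 (-1.02, SE 0.33), and squalene epoxidase, Sqle, had 8.81 and 8.39 against 9.87 and 9.38 (-1.03, SE 0.45). The combination arrays were lower in all 3 without overlap, and the differences on PD-0325901 against vehicle arrays were -0.56, -1.03 and -0.82.

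The genes of the mTOR complexes and their regulators had no common direction, 18 higher and 18 lower with a median of -0.01 (-0.01 to 0.01). Rheb is given above, and the complex that inhibits it, TSC, lay opposite. Tsc2 had 10.85 and 10.56 on the combination arrays and 10.16 and 10.33 on the rapamycin arrays (0.46, SE 0.13), and Tsc1 had 9.77 and 10.09 against 9.58 and 9.40 (0.44, SE 0.15). The mTORC2 subunit Mapkap1 had a difference of 0.32 (SE 0.11), the translation repressor Eif4ebp2 of -0.37 (SE 0.11) and Sesn1, an inhibitor of mTORC1 that p53 induces, of 0.51 (SE 0.21). Mtor had a difference of 0.05. Irs2, an insulin receptor adaptor, had 10.02 and 9.54 against 9.33 and 9.26 (0.49, SE 0.18), where PD-0325901 arrays were below vehicle arrays (-0.43), and the receptor Kit had 8.46 and 8.31 against 9.40 and 8.97 (-0.80, SE 0.25). Mast cells carry Kit, which is itself a member of the mast cell list. The mast cell score was 1.18 and -0.36 on rapamycin arrays 1 and 2, against -0.44 and -0.09 on combination arrays 1 and 2. The part of mast cells in the Kit difference was not tested. The list of receptor tyrosine kinases and adaptors had a median of 0.04 (-0.12 to 0.10), with 12 of 22 higher. Translation factors had a median of -0.14 (-0.25 to -0.05), with 17 of 22 lower, among them Eif3b (-0.49, SE 0.18).

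Proliferation genes took their direction from the rapamycin arrays. Of 31 genes of G1/S and DNA replication 25 were lower with a median of -0.16, which was -0.57 without rapamycin array 1 and 0.33 without rapamycin array 2, and none had an unadjusted p under 0.05. Scores were -0.18 and -0.32 on the combination arrays and -0.53 and 0.38 on the rapamycin arrays. For mitosis genes the median was -0.05 (-0.43 to 0.37) and for ribosome biogenesis genes -0.17 (-0.54 to 0.17), with the same 2 arrays at the ends. Among D cyclins, CDKs and CDK inhibitors 14 of 23 were higher, 7 without overlap (all genes 16%), and the median was 0.12 (0.02 to 0.16). Cyclin D2, Ccnd2, had 11.15 and 11.70 against 10.83 and 10.04 (0.99, SE 0.31), and Cdkn2a had 11.00 and 11.19 against 10.70 and 9.70 (0.89, SE 0.36). On PD-0325901 against vehicle arrays all 31 G1/S genes were lower, with a median of -0.42.

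The largest differences of all depended in many cases on 1 array. Leaving out 1 array reduced the difference to under 0.67 of its size for 6 of the 8 largest among the higher genes and 4 of the 8 largest among the lower ones. Eif2s3y and Uty, both Y-linked, were among the first because of combination array 1 (9.81 and 5.60 with the combination, 5.06 and 5.15 with rapamycin for Eif2s3y). The amino acid transporter Slc38a4 had 10.54 and 7.85 against 7.25 and 6.91 (2.12), and Vsnl1, a neuronal calcium sensor, had 8.58 and 10.11 against 7.30 and 7.43 (1.98, SE 0.46). The Wnt antagonist Dkk2 had 11.13 and 11.54 against 10.48 and 8.19, and the limb and skin factor Tbx15 had 10.68 and 10.39 against 7.34 and 9.85, in which the 2 rapamycin arrays were over 2 log2 units apart. Among the lower genes, the macrophage elastase Mmp12 had 7.35 and 7.14 against 8.92 and 11.44 (-2.94, SE 1.08). The keratin Krt18 had 8.30 and 7.79 against 9.91 and 11.71 (-2.76, SE 0.91), and Pcolce2, an enhancer of procollagen processing, had 7.19 and 7.11 against 10.56 and 8.90 (-2.58, SE 0.67). In these 3 both rapamycin arrays were at least 1 log2 unit above both combination arrays. The collagenase Mmp13 had a difference of -2.05 (SE 0.82), Dynap of -2.54 (SE 1.47) and Naalad2 of -2.08 (SE 1.16). Fabp4, the fatty acid binding protein of adipocytes and capillaries, had 7.40 and 7.58 against 11.17 and 8.31, and the carbonic anhydrase Car3, abundant in fat and muscle, had 10.37 and 9.34 against 12.56 and 11.62.

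**Figure D5:**
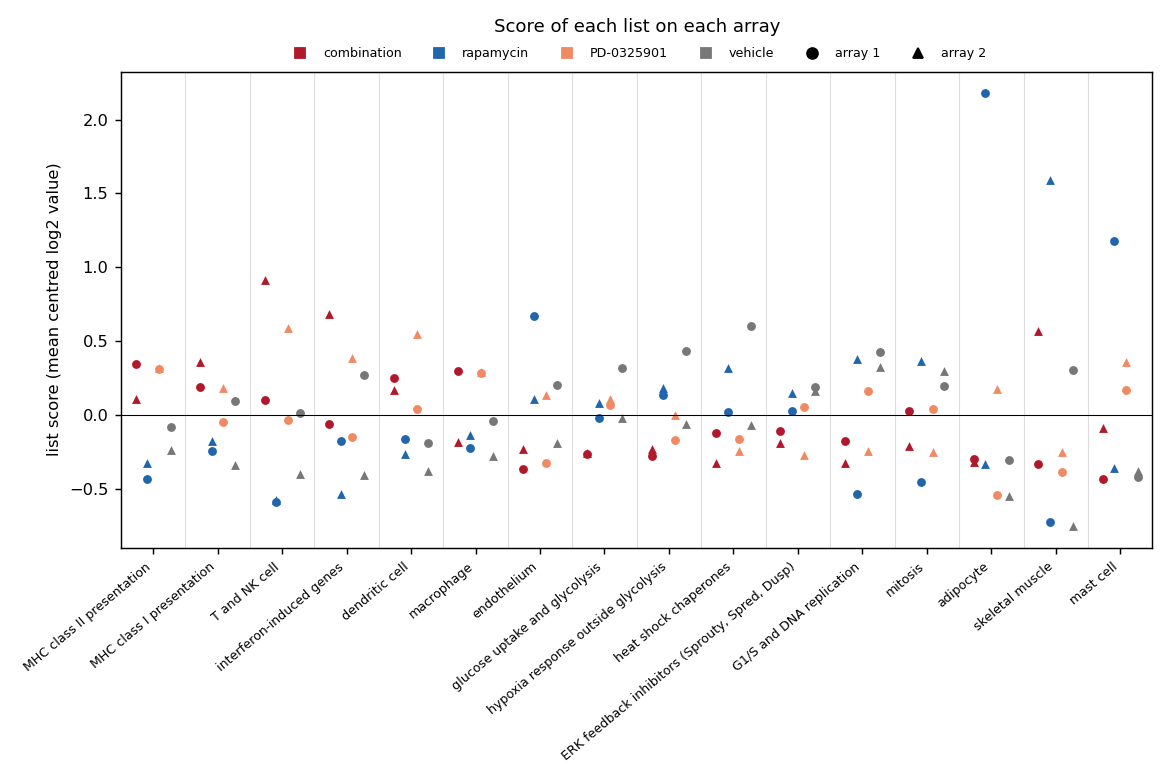
Score of 16 gene lists (vertical axis, log2 units; average over the members after subtraction of each gene's 8-array mean) on each array of the 4 groups. Combination arrays lie above rapamycin arrays for MHC class II (0.35 and 0.11 against -0.44 and -0.33) and below them for the endothelium and hypoxia lists, while adipocyte and mast cell scores are high on rapamycin array 1 and the skeletal muscle score on rapamycin array 2.

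Genes of neighbouring tissue differed through single rapamycin arrays. All 9 adipocyte genes were lower in the mean, with a median of -1.41 that was 0.25 without rapamycin array 1, and all 8 mast cell genes, with a median of -0.63 that was 0.08 without the same array. Skeletal muscle genes had a median of -0.30, between -1.58 without rapamycin array 1 and 0.81 without rapamycin array 2. Fabp4, like the adipocyte score, of which it is itself a member, was highest on rapamycin array 1. The part of fat in the Fabp4 difference was not tested. Car3 was high on both rapamycin arrays. The adipocyte score was 2.18 and -0.33 on rapamycin arrays 1 and 2, and the skeletal muscle score was -0.73 and 1.59. The part of either tissue in the Car3 difference was not tested. Matrix protease and inhibitor genes had a median of -0.65, which was -0.13 without rapamycin array 1, with Mmp14, the membrane collagenase, lying opposite at 11.95 and 12.13 against 11.38 and 11.46 (0.62, SE 0.15). Extracellular matrix genes had no stable direction, with a median of 0.04 that was 0.30 without rapamycin array 1 and -0.25 without rapamycin array 2. Their member Col1a1 had 13.11 and 12.94 against 12.82 and 12.32 (0.46, SE 0.18). Schwann lineage genes had a median of 0.06 (-0.02 to 0.12). Of the 21 measured, 3 were higher and 1 was lower without overlap, no larger shares than the 16% and 15.1% of all genes. Of these 3, Gap43 and Tfap2a differed by the most. Gap43, a growth cone protein of axons and repair Schwann cells, had 9.68 and 9.06 against 7.66 and 7.86 (1.61, SE 0.62). Tfap2a, a transcription factor of the neural crest, had 8.97 and 10.29 against 7.68 and 8.80 (1.39, SE 0.83).

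Lysosome and autophagy genes were higher in 24 of 35 cases, with a median of 0.13 (0.04 to 0.20). Without overlap 12 of the 35 were higher and 6 lower, against 16% and 15.1% of all genes. Cathepsin H, Ctsh, had 11.23 and 11.13 on the combination arrays and 10.44 and 10.37 on the rapamycin arrays (0.78, SE 0.17), and it is, like Ctss, abundant in macrophages. ATF4 targets and amino acid supply genes had a median of 0.11, between -0.27 without combination array 2 and 0.38 without combination array 1. The neutral amino acid transporter Slc1a4 was the member furthest apart, with 10.12 and 9.72 against 8.89 and 9.09 (0.93, SE 0.22). The fibroblast median of 0.03 was 0.59 without rapamycin array 1 and -0.34 without rapamycin array 2, so it had no stable direction. Medians were -0.01 for FOXO targets (-0.11 to 0.03), -0.03 for the Bcl2 family (-0.10 to 0.02), 0.05 for epidermal (0.00 to 0.07), 0.00 for neuronal (-0.08 to 0.03) and -0.06 for erythroid markers (-0.25 to 0.03).

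The difference between the 2 steps was tested as an interaction, combination minus rapamycin less PD-0325901 minus vehicle. With limma and Benjamini-Hochberg adjustment 0 genes passed (0%), 434 had an unadjusted p under 0.05 (2.18%), 206 of them positive (1.03%) and 228 negative (1.14%), and the adjusted p of every gene named here was 0.9999. The smallest p on the positive side belonged to Fhod1 (0.99, SE 0.18), an actin-binding formin, Palld (1.52), a protein of actin bundles, Ube2e2 (0.85), Stxbp4 (1.003) and Mmp14 (0.96). Palld had 11.13 and 10.78 on combination arrays and 9.69 and 9.96 on rapamycin arrays, against 10.53 and 10.17 on PD-0325901 arrays and 10.59 and 10.88 on vehicle arrays, so the rapamycin arrays were the lowest of the 8. On the negative side were Rbmx (-1.16), Plvap (-0.93), Tbx18 (-0.83), a transcription factor of mural cells and fibroblasts, Smim14 (-0.90) and Hexim1 (-0.60), an inhibitor of transcription elongation. For Rbmx and Plvap the rapamycin arrays were the highest of the 8. Both vehicle arrays and neither rapamycin array carried Y-linked transcripts, as did 1 array of each other group. The interaction therefore also holds the difference between arrays with and without these transcripts. The fit with these transcripts as a covariate was run only for combination against rapamycin.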

How the data were processed

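RNA of primary MPNST was isolated with Trizol and RNeasy, amplified and biotin-labelled with NuGEN Applause WT-Amp ST, per the labels' protocols, and hybridised to Affymetrix mouse gene arrays, 1 array per sample. The values are the authors' deposited log2 values per probe set, 35512 in all. That the base is 2 was read from their range of 3.36 to 14.36, since natural logs of 16-bit intensities end at 11.09. How they were background-corrected and normalized is not given in the sources used here, and signal over background is unknown. Array medians over genes lay between 8.23 and 8.27, so no further scaling was applied. A deposited log2 value is relative to its own probes, so levels of different genes were not compared.

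GEO's platform annotation gave 1 gene symbol to 21789 probe sets, several to 1621 and none to 12102. Of the first, 21698 matched RefSeq and no symbol changed. For 999 genes with more than 1 probe set the one with the highest mean was used, leaving 19938 genes. Groups were taken from the sample titles, and all 8 sample columns were used.

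Group means were fitted with limma 3.58.1 (R 4.3.3; lmFit, eBayes) over all 8 arrays, with 4 residual and 1.98 prior degrees of freedom, and p-values were adjusted by Benjamini-Hochberg over all genes at 0.05. The fit was tested on simulated data. Alternatives were quantile normalization, centring, a level filter, a trended robust prior, probe set means, the array number as a block, only the compared groups, each array left out and, chosen after the values were seen, Y-linked transcripts (3 genes) as a covariate. The array numbers were not treated as pairs in the main fit. Deviations of same-numbered arrays correlated at -0.0682 for combination and rapamycin, and at -0.2778 to 0.1831 over all pairs of groups. With 2 arrays a group, this cannot settle whether the numbers pair the samples.

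Genes are named by rule: the 12 in each direction with the smallest p among those without overlap and above the median level (8.25), the 8 in each direction with the largest difference without overlap, for each list up to 4 members of largest limma t along its median, pathway readouts by role, and the 5 of smallest p in each direction of the interaction. Other list members were named after their values were seen. The comparison, the 42 lists (27 pathway, 15 cell type; 798 of 866 genes measured) and the named readouts were chosen with earlier results of these data known. Promoters come from RefSeq's table in GRCm38.p6.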

Additional observations from a re-analysis of the deposited data

Results flagged for a closer look

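Among the genes named by rule, 15 had arrays that separated without overlap in both steps but in opposite directions, with and without rapamycin. Other list members were not examined for this. The difference was tested as the interaction in limma, with a Benjamini-Hochberg adjusted p of 0.9999 for each, so none passed. Of the 15, 7 had been chosen for the smallest interaction p. The other rules had named 204 genes. Among all 19938 genes, 622 separated in opposite directions in the 2 steps, so genes of this kind also occur outside those named. Vehicle and rapamycin arrays also differ in Y-linked transcripts, as given above, and no interaction was adjusted for this. The collagen genes were higher on combination than on rapamycin arrays and lower on PD-0325901 than on vehicle arrays: Col1a1 by 0.46 and -0.30 (interaction 0.76), Col1a2 by 0.26 and -0.31 (interaction 0.57) and Col5a1 by 0.36 and -0.29 (interaction 0.65). The adaptor Irs2 had 0.49 and -0.43 (interaction 0.91). In the same direction were 4 genes chosen by their interaction, the collagenase Mmp14 with 0.62 and -0.34 (interaction 0.96), the actin-binding genes Palld with 1.13 and -0.39 (interaction 1.52) and Fhod1 with 0.34 and -0.65 (interaction 0.99), and Ube2e2 with 0.63 and -0.22 (interaction 0.85).

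The others were lower on combination than on rapamycin arrays and higher on PD-0325901 than on vehicle arrays. Car3, the carbonic anhydrase of fat and muscle, had -2.24 and 1.48 (interaction -3.72). The death agonist Bad had -0.17 and 0.08 (interaction -0.26), the Ras relative Rras -0.19 and 0.17 (interaction -0.36) and the erythroid membrane protein Epb42 -0.09 and 0.21 (interaction -0.30). Of those chosen by their interaction, Tbx18 had -0.42 and 0.41 (interaction -0.83), Smim14 -0.40 and 0.51 (interaction -0.90) and Hexim1 -0.25 and 0.35 (interaction -0.60).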

How the results depend on the processing

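No setting gave a gene with an adjusted p under 0.05 for combination against rapamycin, with limma. The smallest adjusted p was 0.0528 without combination array 1, 0.2009 without combination array 2, 0.0681 without rapamycin array 1, 0.0558 without rapamycin array 2, 0.9196 with only the 4 arrays compared and 0.3576 with Y-linked transcripts as a covariate. With 1 array left in a group, that array is assumed to vary like the others. For the interaction 0 to 2 genes passed with an array left out, the 2 being higher and found without vehicle array 2. Genes at an unadjusted p under 0.05 numbered 669 to 974 higher and 365 to 1424 lower with each array left out (365 lower without combination array 2, against 1424 without rapamycin array 1 and 1071 without its array 2). They were 412 higher and 259 lower among genes above the median level, where fewer genes are tested. With the array number as a block, which is not known to pair the samples, they were 731 higher and 500 lower. The smallest adjusted p from limma was then 0.7474. Of 42 list medians, the sign changed for 9 and 8 when combination array 1 or 2 was left out, and for 8 and 12 when rapamycin array 1 or 2 was. The number of arrays limits precision, and signal over background could not be judged.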
